A study of Mus musculus with 6 samples.

Results

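The AP-1 subunit genes Fos, Fosb, Fosl1, Fosl2, Jun, Junb, Jund, Atf3, Batf and Maff were read by 14 probe sets in cells sorted as eosinophils from subcutaneous (subcut) adipose tissue (AT) of WT and Klf3-/- mice. A probe set was taken when its platform annotation gave exactly 1 of these symbols, and no probe set listed a member beside another symbol. They are 10 of 17097 genes with a single-symbol probe set, and 14 of 45037 probe sets in all. The study asked what the loss of KLF3, a zinc finger protein known as a transcriptional repressor, does to these cells. The 3 WT and 3 Klf3-/- mice were untreated male littermates on the FVB/NJ background, aged 12 weeks and kept at 22 °C on standard chow. The knockout was global, so each cell of a Klf3-/- mouse carried it. Live CD45+ CD11b+ F4/80+ SiglecF+ cells with high side scatter were sorted from the stromal vascular fraction (SVF) after collagenase digestion, and each mouse gave 1 array.

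AP-1 is a dimer of basic leucine zipper (bZIP) proteins. Fos proteins pair with Jun proteins, Jun proteins can also pair with each other, and the dimer binds short DNA elements near genes of growth, inflammation and matrix turnover. Fos, Fosb, Jun, Junb and Atf3 are immediate early genes, which cells transcribe within minutes of a stimulus through MAP kinases. Enzymatic dissociation of tissue and cell sorting are known to induce them, so their level in sorted cells can reflect handling as well as state. The methods give the same procedure for all 6 mice, but these sources do not state whether they were handled together or for equal times. No undigested or unsorted sample was analysed here, and the part of handling in the readings was not tested.

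Values are given as normalised intensity, the log2 of the deposited intensity after quantile normalisation between arrays, because array medians lay between 30.3 and 58.7. A gene with several probe sets is represented by the brightest of them. With no detection calls in the table, 5.10 log2 units, the 95th percentile of 44 olfactory receptor probe sets, served as the background level. The labelled cell type was not borne out by its defining markers, as Siglecf, Ccr3, Epx, Prg2 and Il5ra all lay below that level, with WT means of 3.31 to 4.58, and the cells are called sorted cells here. Of 14 measured eosinophil markers 6 lay above it, among them the shared cytokine receptor chains Csf2rb2 (9.83 in WT) and Csf2rb (9.82). Markers of macrophages (C1qa, 12.05 in WT) and stromal cells (Col3a1, 12.56 in WT) read well above it. So did those of the MHC class II (H2-Aa, 13.29 in WT), endothelial (Pecam1, 9.81), B cell (Ms4a1, 9.36) and T cell (Cd3e, 9.23) lists. In such bulk samples, fewer cells of a type and less RNA per cell cannot be told apart. Of 6 Klf3 probe sets, 5 had log2 fold changes of 0.69 to 2.83 and 1 had −1.01, and as the sources used here do not place them relative to the disrupted part, they did not check the genotype.

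Most AP-1 subunit genes were read well above background in WT and Klf3-/- cells alike, and no difference between the genotypes passed the test. Of the 10 genes, 9 lay above the background level, all but Fosl1. On average 6 genes were higher and 4 lower in Klf3-/- cells, where 44.8% of all 17097 genes were higher. The median log2 fold change was 0.29 against −0.04 over all genes. That share of 44.8% is also the background for the counts of higher and lower genes in the lists below. On the values as deposited 7 were higher, since Junb changed sign there, close to the 69.5% of all genes that were higher on that scale. The median there was 0.41 against 0.13 over all genes. The subunit median was 0.16 without Klf3-/- mouse 2, 0.18 without WT mouse 2, 0.19 without WT mouse 3 and 0.13 when each gene was averaged over its probe sets. In limma 0 of the 14 probe sets had an adjusted p under 0.05, against a background of 0% of all probe sets, and a one-way analysis of variance called 0 as well. At an unadjusted p under 0.05 limma gave 1 of 14, a second Jund probe set, where 5.5% of all probe sets were called (3.1% higher and 2.39% lower in Klf3-/-). That count was 0 without WT mouse 2, without WT mouse 3 and without Klf3-/- mouse 2. The single call changed direction without Klf3-/- mouse 1 and under trend and robust fitting, where it was the brighter Jund probe set, higher in Klf3-/- (limma unadjusted p = 0.0184 and 0.0321), in place of the dimmer one. The genotypes did not overlap in 3 of the 14 probe sets, 1 higher and 2 lower in Klf3-/-, where 11% of all probe sets did not (4.49% higher and 6.51% lower). With so few probe sets these counts are a description, not a result about the subunits. The split of calls over all probe sets moved with the scale, from 1398 higher and 1077 lower after normalisation to 1150 and 62 as deposited.

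**Figure D1:**
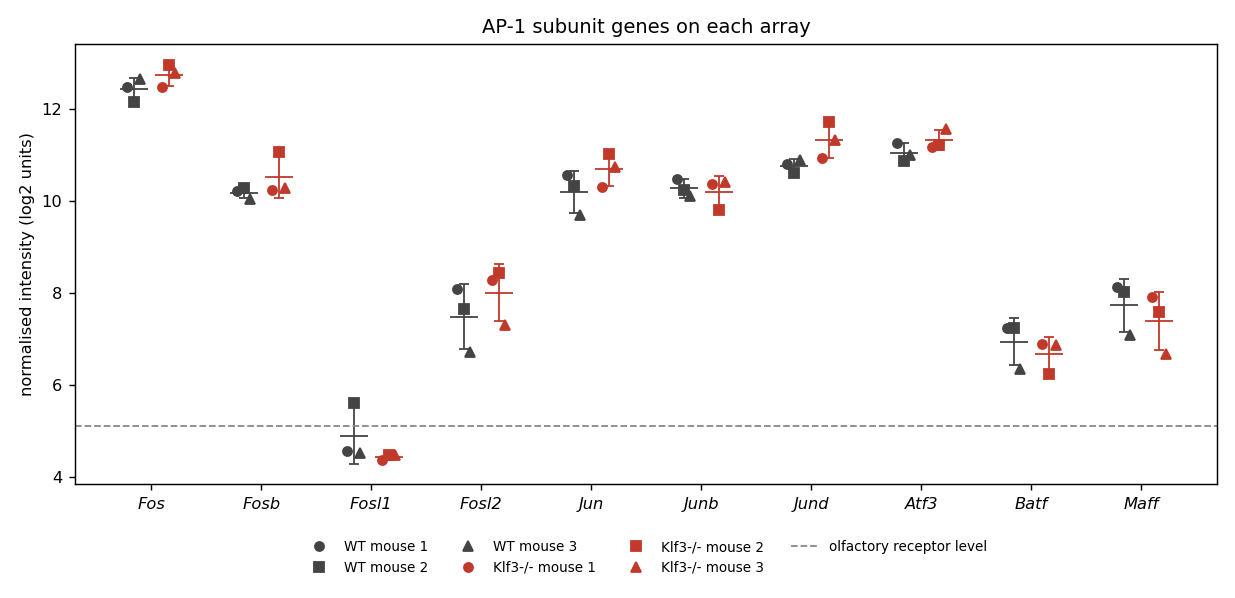
Normalised intensity (log2 units) of the 10 AP-1 subunit genes on each array, WT in grey and Klf3-/- in red, with a marker shape for each replicate number. Horizontal bars are means and whiskers are SD (n = 3 mice each), and a dashed line marks the background level, 5.10. Only Fosl1 sits around that line, and Jund is the gene whose 3 Klf3-/- points all lie above its WT points.

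Fos encodes c-Fos, the founding partner of Jun. Its normalised intensities were 12.49, 12.17 and 12.66 in WT mice 1 to 3, against 12.49, 12.97 and 12.78 in Klf3-/- mice 1 to 3. Klf3-/- mouse 1 read the same as WT mouse 1, so the genotypes overlapped. The log2 fold change was 0.31 (standard error, SE, 0.22, limma adjusted p = 0.942), a fold of 1.24 with a 95% interval of 0.863 to 1.77. As deposited, the WT arrays gave 5351, 6485 and 4936 and the Klf3-/- arrays 6652, 9184 and 6099, with overlap there too.

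Fosb encodes FosB, which also needs a Jun partner to bind DNA. It read 10.22, 10.28 and 10.06 in the WT animals against 10.25, 11.07 and 10.29 in Klf3-/- mice. A single array, that of Klf3-/- mouse 2, stood apart from the other five. The log2 fold change of 0.35 (SE 0.26, limma adjusted p = 0.944) was 0.08 without that mouse.

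The Fos-related antigens Fosl1 (Fra-1) and Fosl2 (Fra-2) lack a strong transactivation domain. Both Fosl1 probe sets lay below the background level on average, and the brighter one exceeded it on 1 array, WT mouse 2, at 5.60. Its 3 Klf3-/- values, 4.36 to 4.46, lay under all WT values, 4.50 to 5.60, but below background such an order is between dim values. Fosl2 varied most of the genes above background, from 6.71 to 8.10 in WT and from 7.30 to 8.44 in Klf3-/- cells. Its log2 fold change was 0.52 (SE 0.44, limma adjusted p = 0.952), and a dimmer Fosl2 probe set gave 0.07. The 95% interval for the brighter one, −0.51 to 1.55, was the widest of all 14 in the limma fit on genotype alone.

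Jun, the core partner in AP-1, read 10.58, 10.34 and 9.70 in the WT animals against 10.31, 11.03 and 10.76 in Klf3-/- mice. The genotypes overlapped because Klf3-/- mouse 1 lay below WT mice 1 and 2. The log2 fold change was 0.49 (SE 0.30, limma adjusted p = 0.917), and 0.31 for the other Jun probe set. Without WT mouse 3 the value for the brighter probe set was 0.24, and without Klf3-/- mouse 1 it was 0.68.

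Junb, a weaker activator that can oppose Jun, read 10.10 to 10.49 in WT and 9.80 to 10.42 in Klf3-/- cells. Its log2 fold change of −0.08 (95% interval −0.63 to 0.48) was among the smallest of the 14 probe sets, and its sign turned (0.12) with deposited values. Klf3-/- mouse 2, the highest array for Fos, Fosb and Jun, was the lowest for Junb.

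Jund, which is known as the steadily transcribed Jun gene, gave contrary readings. Its brighter probe set read 10.81, 10.62 and 10.91 in the WT animals against 10.94, 11.73 and 11.33 in Klf3-/- mice. All Klf3-/- arrays lay above all WT arrays, although Klf3-/- mouse 1 was barely above WT mouse 3. The log2 fold change was 0.55 (SE 0.24, limma adjusted p = 0.909), a fold of 1.47. The dimmer Jund probe set ran the other way. It read 5.80, 6.32 and 6.38 in the WT animals against 5.34, 5.60 and 5.76 in Klf3-/- mice, again without overlap. Its log2 fold change was −0.60 (SE 0.23, unadjusted p = 0.0351, limma adjusted p = 0.879), and every array read it close above the background level of 5.10.

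The annotation gives these Jund probe sets different source records. The difference between their log2 values, the brighter minus the dimmer, was 4.61 ± 0.36 in WT and 5.77 ± 0.32 in Klf3-/- cells (SD, n = 3 each). Since the genotypes separated in opposite directions in each probe set, this difference had to separate as well, and it is given as a description. The mean of the pair had a log2 fold change of −0.023. A direction for Jund depends on which probe set is read, and on the values as deposited the genotypes overlapped in each of them.

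Atf3 encodes a stress-induced bZIP repressor that dimerises with Jun proteins. It read 11.28, 10.87 and 11.00 in the WT animals against 11.19, 11.22 and 11.58 in Klf3-/- mice, and the genotypes overlapped. Its log2 fold change of 0.28 (SE 0.21, limma adjusted p = 0.944) had a 95% interval of −0.21 to 0.76.

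Batf and Maff encode small bZIP proteins without a transactivation domain of their own. Batf, known in lymphocytes and dendritic cells as a Jun partner that binds with IRF factors, read 6.35 to 7.23 in WT and 6.23 to 6.89 in Klf3-/- cells. Its log2 fold change was −0.28 (SE 0.32, limma adjusted p = 0.959). Maff, a small Maf protein, read 7.07 to 8.12 in WT and 6.67 to 7.91 in Klf3-/- cells, a log2 fold change of −0.35 (SE 0.41, limma adjusted p = 0.960). The Maff value was 0.011 without Klf3-/- mouse 3, the lowest of its 6 arrays.

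**Figure D2:**
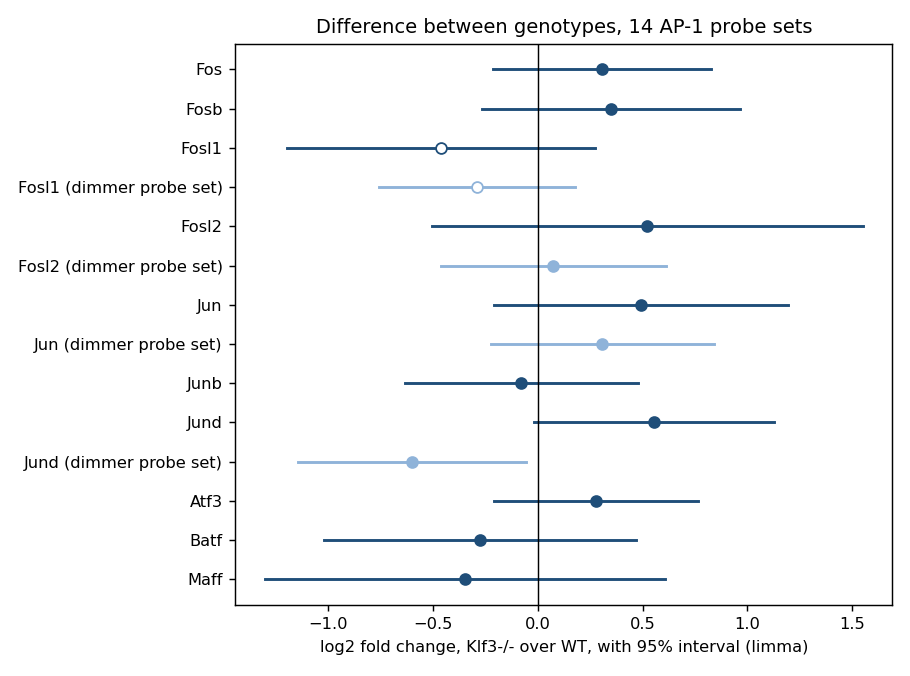
Log2 fold change of each of the 14 AP-1 probe sets, Klf3-/- over WT, with its 95% interval from limma. Dark points stand for the gene, pale points are further probe sets and open points lie below the olfactory receptor level. Only the interval of the dimmer Jund probe set, centred on −0.60, leaves out 0, and the brighter Jund probe set sits on the opposite side at 0.55.

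The intervals, from the fit on genotype alone, show what 3 mice against 3 could resolve when the replicate numbers were not used. For 4 of the 10 genes, the 95% interval lay within 1 log2 unit of no difference on either side. These were Fos, Fosb, Junb and Atf3. For the other genes a change of 1 log2 unit in at least one direction was not left out by the interval. The SD within genotype ran from 0.21 for Atf3 to 0.67 for Fosl2, and 4 of the 9 genes above background exceeded the median of 0.35 over the 11115 genes above that level.

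Within replicate numbers, the direction differed between genes. For Fosb, Fosl2 and Jund the Klf3-/- array was higher within each of the 3 replicate numbers, and for Fosl1 and Maff it was lower within each. The remaining 5 genes were mixed, Fos among them with a difference of 0 in replicate 1. The difference was largest in replicate 2 for 8 of the 10 genes and in replicate 3 for Jun and Atf3. Its median size was 0.16 log2 units in replicate 1, 0.79 in replicate 2 and 0.41 in replicate 3. The same counts and sizes were not taken over all genes, so they describe these arrays and are no trait of the subunits. In replicate 2 Fos (0.80), Fosb (0.79), Fosl2 (0.79), Jun (0.69), Jund (1.11) and Atf3 (0.35) were higher in the Klf3-/- mouse. In the same replicate Fosl1 (−1.14), Batf (−1.01), Junb (−0.44) and Maff (−0.43) were lower. With the replicate number as a block, 0 of the 14 probe sets passed and 1 had an unadjusted p under 0.05, where 7.13% of all probe sets had one. The block lowered the unadjusted limma p of Fosl2 from 0.270 to 0.0504 and that of Maff from 0.418 to 0.108. It raised that of the brighter Jund probe set from 0.0560 to 0.0764, and that of Fos among others.

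**Figure D3:**
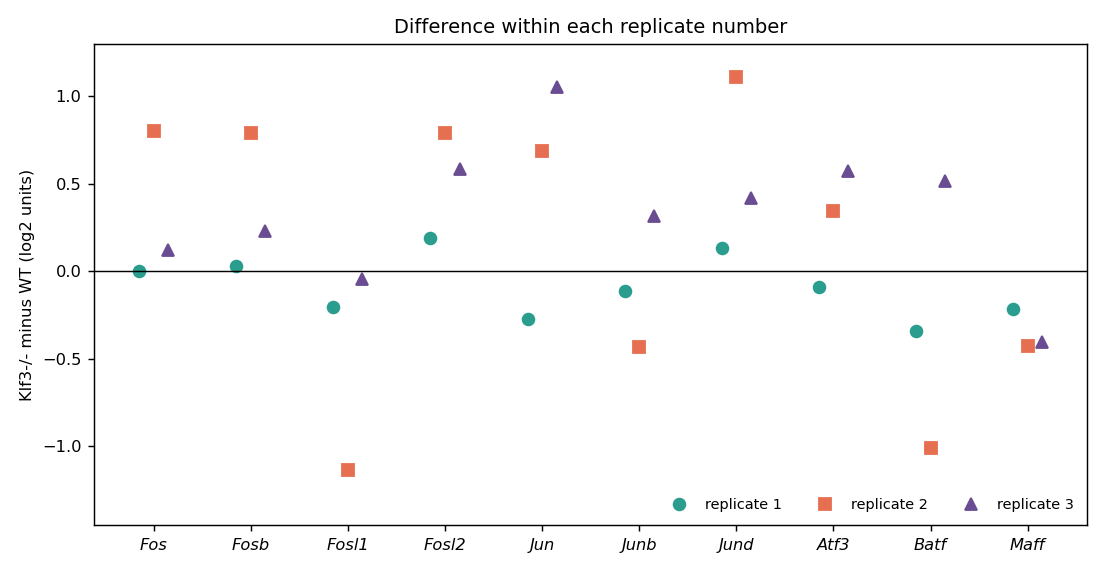
Difference in normalised intensity between the Klf3-/- and the WT array of the same replicate number (log2 units) for the 10 AP-1 subunit genes, with a colour and shape for each replicate. Replicate 2 has the largest difference in 8 of the 10 genes, upward to 1.11 for Jund and downward to −1.14 for Fosl1, while replicate 1 stays close to 0. The share over all genes was not taken.

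Among the 9 genes above background, Klf3-/- mouse 2 was the highest array for 5 (Fos, Fosb, Fosl2, Jun and Jund) and the lowest for Junb and Batf. How often this array was highest over all genes was not counted. That array also had the highest summed intensity of 16 stromal fibroblast and preadipocyte markers, of 7 mast cell markers and of 14 eosinophil markers. It was the highest as well for the other immediate early genes and the other bZIP factors described below. The eosinophil sum was 2905 there, against 1819 and 2045 in the other Klf3-/- mice and 2260 to 2698 in WT mice. It does not show more eosinophils, as Siglecf (4.11), Epx (4.29) and Prg2 (3.22) lay below background on that array. Csf2rb read 9.35 and Csf2rb2 9.57 on it, against WT means of 9.82 and 9.83, so other genes of the list made this sum the highest. The stromal sum was 38538 there, against 24695 and 26708 in the other Klf3-/- mice and 13106 to 23362 in WT mice, and 15 of 16 stromal markers were higher in Klf3-/- cells on average. The mast cell sum was 7615 there, against 614 to 1185 in the other Klf3-/- mice and 303 to 3610 in WT mice, with 7 of 7 markers higher on average. The median log2 fold change of the mast cell markers, 1.04, was −0.031 without that mouse and −0.14 without WT mouse 1. Of 10 dendritic cell and MHC class II markers 9 were lower, with sums of 22131 to 28759 in WT and 16650 to 21803 in Klf3-/- mice. The macrophage sum was highest in Klf3-/- mouse 3, at 35818, against 16435 in Klf3-/- mouse 2. The part of these cells in the AP-1 readings was not tested.

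The genes whose pattern over the 6 arrays was nearest to the mean of the 9 subunits above background were Stag2, Fmr1, Zmynd8, Cc2d1b and Nt5c2. The root mean square difference between their centred log2 values and that mean was 0.05 to 0.08, where the median of 11106 genes was 0.40. The subunits themselves lay 0.22 (Atf3) to 0.48 (Maff) from it. They lay farther than those genes, but those were picked as the nearest of 11106, so this is no trait of the subunits. Of the subunits, only Fosl2 (0.43), Batf (0.41) and Maff lay farther than the median gene, and the mean itself is made of the subunits. The mean pattern was shallow and the subunits went different ways.

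Promoter sequences of Fos, Fosb and Jun are shown as examples of a core Fos-Jun pair and a close relative. These were higher on average in Klf3-/- cells with every probe set after normalisation, as deposited and after median centring, as were Fosl2 and Atf3. The window of Maff is shown because it alone held a full cAMP response element. They come from RefSeq on mouse assembly GRCm38.p6, which held 11 windows for 9 of the 10 genes, all but Fosl1, each with 250 bases before and 50 after an annotated start. The windows printed are chr12:85473640-85473939 on the plus strand for Fos, chr7:19309996-19310295 on the minus strand for Fosb, chr4:95052173-95052472 on the minus strand for Jun and chr15:79347270-79347569 on the plus strand for Maff, 1 of its 3 windows. Capitals mark matches, on either strand, to CCNCNCCC, the GC-rich element that KLF proteins can bind, and to TGACGTCA, the cAMP response element.
Fos: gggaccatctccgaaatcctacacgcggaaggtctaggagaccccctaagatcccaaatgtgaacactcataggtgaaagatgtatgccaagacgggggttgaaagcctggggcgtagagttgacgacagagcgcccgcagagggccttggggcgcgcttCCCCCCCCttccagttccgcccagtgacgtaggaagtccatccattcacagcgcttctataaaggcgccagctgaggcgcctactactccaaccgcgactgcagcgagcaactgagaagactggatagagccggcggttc
Fosb: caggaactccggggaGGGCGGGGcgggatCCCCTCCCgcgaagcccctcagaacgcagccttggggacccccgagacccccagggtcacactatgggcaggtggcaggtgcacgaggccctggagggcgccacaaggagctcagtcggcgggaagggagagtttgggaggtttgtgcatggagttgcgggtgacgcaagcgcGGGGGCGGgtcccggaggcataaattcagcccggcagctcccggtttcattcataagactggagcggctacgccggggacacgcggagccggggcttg
Jun: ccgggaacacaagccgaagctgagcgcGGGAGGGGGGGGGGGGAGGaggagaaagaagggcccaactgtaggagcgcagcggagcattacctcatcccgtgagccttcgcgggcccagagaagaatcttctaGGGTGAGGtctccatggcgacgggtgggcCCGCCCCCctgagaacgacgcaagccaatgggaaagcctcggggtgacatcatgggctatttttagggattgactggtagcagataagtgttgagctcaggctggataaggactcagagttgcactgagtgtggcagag
Maff: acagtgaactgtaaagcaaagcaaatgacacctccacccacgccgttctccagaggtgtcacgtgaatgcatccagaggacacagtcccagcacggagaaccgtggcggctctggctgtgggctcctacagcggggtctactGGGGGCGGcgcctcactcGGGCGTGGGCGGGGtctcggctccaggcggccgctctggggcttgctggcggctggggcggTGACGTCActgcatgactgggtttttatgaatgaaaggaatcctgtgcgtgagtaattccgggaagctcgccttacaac
The KLF-type element was present in 9 of the 11 windows and in 49.5% of 32851 promoters of the same length. The Fos window held 1 match, 90 bases before the start, and that of Fosb 3. The Jun window held 9, of which 7 overlapped in a run of G. TGACGTCA was found in 1 of 11 windows, 29 bases before that Maff start, and in 1.79% of all promoters. TGACTCA, a consensus element of AP-1, was in 0 of 11 windows and in 5.2% of all. The CArG box, which serum response factor binds, was in 0 of 11 and in 1.63% of all. Only exact TGACTCA and TGACGTCA were counted, so variant sites are not covered, nor are sites more than 250 bases before a start. Matches to different elements shared no bases in these windows. A match gives letters only and does not show binding. By these windows Fos and Batf start 212830 bases apart on chromosome 12, and their log2 fold changes were 0.31 and −0.28.

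Other bZIP factors, which can share partners with AP-1, were listed from textbook knowledge, and 28 of 30 were measured. On average 16 were higher and 12 lower, and their median was 0.06. In limma 0 passed, and Atf5 (0.71, adjusted p = 0.854), a stress-response factor, was the 1 with an unadjusted p under 0.05, where 6.09% of all genes had one. The next by p were Crem (−0.53), which lay below background, Ddit3 (−0.49), which encodes CHOP, and Atf7 (0.42).

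Other immediate early genes, which are induced alongside Fos and Jun, were split in direction. Of 27 measured 11 were higher and 16 lower, and their median log2 fold change was −0.18, which turned to 0.024 with deposited values. In limma 0 passed. Klf10, a KLF family repressor that TGF-beta induces, was the 1 of 27 with an unadjusted p under 0.05, where 6.09% of all genes had one, at 8.49 ± 0.44 in WT and 9.77 ± 0.17 in Klf3-/- cells (SD, n = 3 each, adjusted p = 0.663 from limma). The genotypes did not overlap in 5 members, Klf10 and Ier2 (0.38) higher and Btg1 (−0.35), Btg2 (−0.29) and Rhob (−0.47) lower, where 11.4% of all genes did not (4.84% higher and 6.55% lower). The MAPK phosphatase Dusp2 had −0.82 and the cytokine signal inhibitor Socs3 had 0.56, both with overlap. Of 11 heat shock genes, another group that dissociation is known to induce, 2 were higher and 9 lower, with a median of −0.22. None of the heat shock genes had an unadjusted p under 0.05 in limma, the smallest p being that of the co-chaperone gene Dnajb4 (−0.43), followed by those of Hsph1 (−0.62), Hspe1 (−0.40) and Dnajb1 (−0.34).

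Upstream of AP-1, 8 of 21 measured MAPK pathway genes were higher and 13 lower (median log2 fold change −0.017, and 0.11 as deposited), and 0 passed in limma. The kinase gene Map2k6, which acts on p38, had −0.94 and the RSK kinase gene Rps6ka3, which acts below ERK, had 0.45, and these 2 of 21 had an unadjusted p under 0.05, where 6.09% of all genes had one. Mapk8, which encodes the Jun kinase JNK1, had −0.40 (adjusted p = 0.910) and Mapk13, a p38 kinase gene, had 0.75 (adjusted p = 0.929). Of 10 MAPK phosphatases, which switch these kinases off, 7 were higher and 3 lower, with a median of 0.18 that was −0.026 without Klf3-/- mouse 3. None of them had an unadjusted p under 0.05 in limma. Dusp22 had 0.71, Dusp14 −0.48, Dusp4 −0.24 and Dusp6 0.41, and Dusp14 lay below background.

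Genes known as AP-1 targets differed in size and direction. Of 26 measured 14 were higher and 12 lower (median log2 fold change 0.20), and limma called 0. At an unadjusted p under 0.05 there were 3 higher, where 3.61% of all genes were, and 2 lower, where 2.47% were. Il6, an inflammatory cytokine, read 6.61 ± 0.42 in WT and 8.07 ± 0.24 in Klf3-/- cells. Plau, which encodes urokinase, read 6.39 ± 0.44 and 7.58 ± 0.32, and Gja1, which encodes the gap junction protein connexin 43, read 7.95 ± 0.26 and 9.27 ± 0.66 (SD, n = 3 each). Mmp12, the macrophage metalloelastase, read 6.61, 8.39 and 9.44 in the WT animals against 4.15, 5.56 and 6.43 in Klf3-/- mice, a log2 fold change of −2.77 (SE 0.81, limma adjusted p = 0.854). The other lower gene was Il1a (−1.09). In 7 of the 26 the genotypes did not overlap, 5 higher and 2 lower, where 4.84% and 6.55% of all genes were apart in that way, Vim (0.22) and Vegfa (0.47) being the further ones that were higher. Stromal markers were higher in the same Klf3-/- arrays, with the sums given above, and their part in the target readings was not tested.

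**Figure D4:**
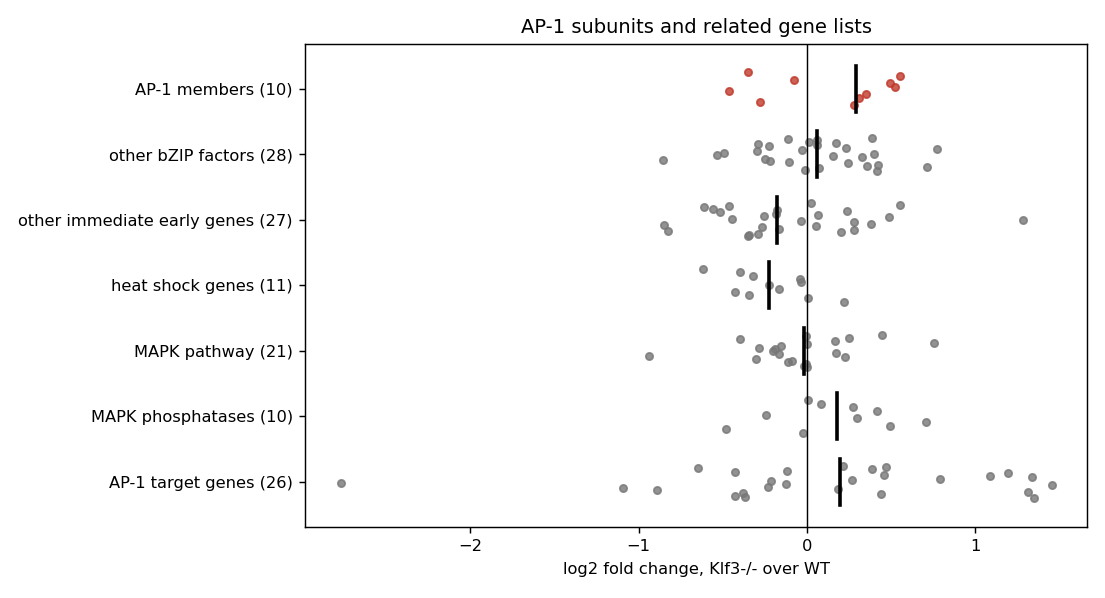
Log2 fold change, Klf3-/- over WT, of each measured gene in the AP-1 subunit list (red) and 6 related lists (grey), with the number of genes in parentheses and black bars at the medians. The subunits sit around a median of 0.29 between −0.46 and 0.55, while the AP-1 targets reach from −2.77 for Mmp12 to 1.45 for Il6.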

How the data were processed

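RNA of each mouse was hybridised to its own array, 6 Affymetrix GeneChip HT MG-430PM in all, after amplification with the 3′ IVT Pico Kit. Per the labels and methods, the authors used Partek Genomics Suite and name RMA normalisation. The deposited values are intensities on a linear scale for 45037 probe sets, with RMA settings not stated in these sources. Array medians differed, so the values were put on a log2 scale and quantile-normalised. Genotypes were compared with limma 3.58.1 (lmFit and eBayes) in R 4.3.3, p-values were adjusted (Benjamini-Hochberg) across the whole table, and 0.05 was the threshold. Of the probe sets, 28898 had 1 symbol in the platform annotation, 551 had several and 15588 had none. The fit was run on simulated data with planted shifts larger than any difference of the subunits and without pairing. That run therefore does not bear on differences of their size. The number of arrays limits the precision.

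The subunits and gene lists were chosen with earlier results of these data known. Genes named beside the subunits are the 4 of each list with the smallest p, the 2 brightest of a marker list where it is described, the defining eosinophil markers, Klf3 and the 5 genes nearest to the mean subunit pattern. Other genes named for lack of overlap or for an unadjusted p under 0.05 were chosen after their values were seen. Arrays that share a replicate number deviated together from their genotype means (r = 0.17, 0.23 and 0.21). Arrays with different numbers gave −0.18 to −0.01, which is no separate evidence, as deviations from the mean of 3 arrays sum to 0. The labels call the mice litter-matched, so the numbers were taken to pair the arrays. A fit blocked on that number was an alternative, and the SEs and intervals given for each gene come from the fit without it. Further alternatives were the values as deposited, centring on array medians, trend and robust fitting, a one-way analysis of variance (the methods name a two-way ANOVA whose second factor these sources do not state), a filter on dim probe sets, averaging each gene over its probe sets, and leaving out each array. Promoter windows were searched for motifs on both strands. Figures were drawn with matplotlib 3.10.9.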

Additional observations from a re-analysis of the deposited data

How the results depend on the processing

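In each of the 12 other settings of the test, an adjusted p under 0.05 was reached by 0 AP-1 probe sets and by 0 over the whole table. The count of AP-1 probe sets at an unadjusted p under 0.05, which was 1, was 0 on the values as deposited, 0 in a one-way analysis of variance and 0 with dim probe sets left out, and 0 to 1 when single arrays were left out. Under trend and robust fitting and without Klf3-/- replicate 1 it was 1, the brighter Jund probe set. With the replicate number as a block it was 1, the dimmer Jund probe set, and the paired fit changed no call. Of the 14 log2 fold changes of AP-1 probe sets, 13 kept their sign as deposited and 14 after median centring, as did 80 of 84 with single arrays left out. The block, trend and robust fitting, the analysis of variance and the dim filter change only the p. Junb gave 0.12 with deposited values and ran from −0.19 to 0.13 when single arrays were left out. Jund turned to −0.023 as the mean of its probe sets. When single arrays were left out, Maff ran from −0.69 to 0.011 and the dimmer Fosl2 probe set from −0.087 to 0.28. The cause was not tested. Over all probe sets, 1398 higher and 1077 lower had an unadjusted p under 0.05, against 1150 and 62 as deposited, where the median log2 fold change of all probe sets was 0.13 in place of −0.03. The higher count was 900 in the analysis of variance, and the lower count was 571 without dim probe sets. The median of the other bZIP factors was 0.21 as deposited, and that of the MAPK phosphatases ran from −0.026 without Klf3-/- replicate 3 to 0.48 without Klf3-/- replicate 2 and was 0.0022 with probe sets averaged.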
